A study of Mus musculus with 13 samples.

Results

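The genes described here make, sense and export cholesterol, and their transcripts were measured by bulk RNA sequencing of mouse liver endothelial cells, the cells that line the sinusoids and larger vessels of the liver. Members were chosen by gene symbol from a fixed list of 32 genes, and all 32 were found among the 24421 symbols of the deposited count table. All 32 were also abundant enough to be tested, next to 13915 genes tested in all. They were described in 4 groups by their step: 7 genes of the early mevalonate pathway, 11 of late sterol synthesis, 7 of the control by sterol regulatory element binding proteins (SREBP), and 7 linked to liver X receptors (LXR) and cholesterol efflux. The 7 libraries of the control group came from conventionally raised wild-type mice (CONV-R), which carry a normal microbiota. The other 6 libraries came from wild-type mice raised germ-free (GF). The labels give no strain, sex, age, cage or cell isolation method, and do not say whether a library was made from 1 animal.

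Cells build cholesterol from acetyl-CoA through mevalonate, farnesyl diphosphate, squalene and lanosterol, and the enzymes of this route are switched on together by SREBP-2. When membranes hold enough sterol, INSIG proteins keep SCAP and its SREBP cargo in the endoplasmic reticulum, and synthesis falls. Excess cholesterol yields oxysterols that activate LXR, which raises ABC transporters that export cholesterol and an E3 ligase that removes the receptor for low-density lipoprotein. Endothelial cells of the liver take up lipoproteins from blood and are in close contact with hepatocytes, which make sterols at a high rate.

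The promoters of 7 members are shown first, because they belong to genes that moved together in the results below. They are Hmgcs1 from the early steps, the regulator gene Srebf2, the 3 late enzyme genes Cyp51, Msmo1 and Hsd17b7, the SREBP target Tmem97, and Mylip, an LXR target that moved the other way. Each run holds the 250 bases before a RefSeq start of the gene in build GRCm38, 5′ to 3′ on the strand of the gene. The run of Hsd17b7 ends inside the gene's span, which reaches base 169969242. Capitals mark 2 motifs on either strand. The first is TCACNCCAC, the core of a sterol regulatory element, where up to 1 mismatch was allowed. The second is CCAAT, read as ATTGG on the other strand, which the factor NF-Y binds next to SREBP in many sterol promoters. In Msmo1 a CCAAT and an imperfect element share a base, so that their capitals run together.
Hmgcs1, chr13:119690101-119690350, plus strand: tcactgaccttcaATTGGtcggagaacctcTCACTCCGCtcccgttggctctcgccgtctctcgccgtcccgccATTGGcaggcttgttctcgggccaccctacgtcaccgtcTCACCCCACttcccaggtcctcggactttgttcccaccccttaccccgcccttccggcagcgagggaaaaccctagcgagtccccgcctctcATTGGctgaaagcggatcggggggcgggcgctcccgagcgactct
Srebf2, chr15:82147019-82147268, plus strand: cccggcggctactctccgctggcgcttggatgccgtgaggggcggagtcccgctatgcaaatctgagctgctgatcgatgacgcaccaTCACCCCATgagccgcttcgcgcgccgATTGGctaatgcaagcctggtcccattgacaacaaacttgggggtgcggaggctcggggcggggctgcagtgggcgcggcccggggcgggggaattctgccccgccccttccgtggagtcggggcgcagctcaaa
Cyp51, chr5:4104698-4104947, minus strand: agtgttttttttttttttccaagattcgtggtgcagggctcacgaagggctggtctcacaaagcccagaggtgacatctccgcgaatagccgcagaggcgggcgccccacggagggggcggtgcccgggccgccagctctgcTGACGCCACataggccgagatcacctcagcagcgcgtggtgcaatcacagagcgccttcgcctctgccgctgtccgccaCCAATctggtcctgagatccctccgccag
Msmo1, chr8:64733579-64733828, minus strand: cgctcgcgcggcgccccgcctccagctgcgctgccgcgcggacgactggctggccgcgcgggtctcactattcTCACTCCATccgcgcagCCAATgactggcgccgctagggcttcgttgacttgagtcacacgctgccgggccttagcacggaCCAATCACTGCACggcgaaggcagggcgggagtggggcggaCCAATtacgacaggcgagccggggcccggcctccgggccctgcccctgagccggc
Hsd17b7, chr1:169969206-169969455, minus strand: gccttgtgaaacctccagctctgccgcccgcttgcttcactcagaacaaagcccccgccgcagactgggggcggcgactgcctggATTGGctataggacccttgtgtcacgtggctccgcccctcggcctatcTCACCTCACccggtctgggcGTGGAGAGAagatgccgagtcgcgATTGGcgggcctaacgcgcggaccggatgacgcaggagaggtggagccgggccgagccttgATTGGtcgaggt
Tmem97, chr11:78550736-78550985, minus strand: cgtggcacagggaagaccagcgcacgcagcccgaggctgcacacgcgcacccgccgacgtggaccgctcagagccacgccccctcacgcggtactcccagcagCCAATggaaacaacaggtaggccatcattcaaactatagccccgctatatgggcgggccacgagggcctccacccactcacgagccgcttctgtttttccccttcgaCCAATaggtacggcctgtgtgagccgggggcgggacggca
Mylip, chr13:45389492-45389741, plus strand: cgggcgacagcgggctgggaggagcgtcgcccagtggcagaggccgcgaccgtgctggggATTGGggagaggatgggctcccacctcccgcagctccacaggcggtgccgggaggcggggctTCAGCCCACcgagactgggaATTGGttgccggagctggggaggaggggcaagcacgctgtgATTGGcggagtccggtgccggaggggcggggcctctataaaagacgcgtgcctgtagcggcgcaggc

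Promoters were found in the RefSeq table for 26 of the 32 members, in 34 entries. The 20 bases from the start on matched a GENCODE M21 transcript of the gene in 27 entries, but not in that of Hmgcs1. The exact element TCACNCCAC occurred in Hmgcs1 alone among the 26 members, from 137 to 129 bases before its RefSeq start. Among the 10532 tested genes with a promoter, 1.23% held this element. With 1 mismatch allowed, which was added after the exact search, 11 of 26 member genes held it, or 42.3%, against 25.5% of tested genes with a promoter. A CCAAT occurred in the promoters of 22 of 26 members, or 84.6%, and of 40.1% of tested genes. All 16 members that were lower in GF and had a promoter entry held a CCAAT, as did 2 of the 3 higher members and 4 of the 7 that passed in neither direction. The Sp1 motif GGGCGG occurred in 23 of 26 members, or 88.5%, and in 61.4% of tested genes. It was held by 15 of the 16 lower members, 3 of the 3 higher members and 5 of the 7 others. The sterol element with up to 1 mismatch was held by 8 of 16, 2 of 3 and 1 of 7. These letter matches are descriptions of the sequence and not measured binding sites.

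Depth per library lay between 7590320 and 32869515 counts for CONV-R, and between 23407168 and 35478115 for GF. Levels are counts per 1000000 counts of the TMM-scaled library (CPM). A log2 fold change is the GF level over the CONV-R level and is given with its standard error. A gene was called lower or higher where its adjusted p was under 0.05 in the edgeR quasi-likelihood test over all 13915 genes. The endothelial markers were present throughout: Pecam1, an adhesion molecule of endothelial junctions, stood at 1150 ± 206 CPM in CONV-R against 1532 ± 87.6 in GF (SD, n = 7 and 6), and the sinusoidal scavenger receptor gene Stab2 at 4495 ± 874 and 5899 ± 288. Cdh5 stood at 1416 ± 271 and 1735 ± 131, and Lyve1 at 450.2 ± 96.9 and 858 ± 82.4. Transcripts of hepatocytes were found as well and were lower in GF. The sum of 15 hepatocyte markers was 1493 to 9117 CPM of the unscaled library total in CONV-R and 811 to 1321 in GF, with no overlap (exact two-sided permutation test, adjusted p = 0.00544 over 7 marker lists).

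Of the 18 sterol synthesis genes 15 were lower in GF, from early and late steps alike, and 2 genes of the LXR group were higher. Of the 32 members 19 were lower, 3 were higher and 10 passed in neither direction. Among all 13915 genes tested, 12.7% were lower and 11.4% higher. The median log2 fold change was -0.57 over the members and -0.01 over all genes. All 6 GF libraries lay below every CONV-R library for 10 members, against 4.32% of all genes, and above for Mylip, against 5.94%.

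**Figure D1:**
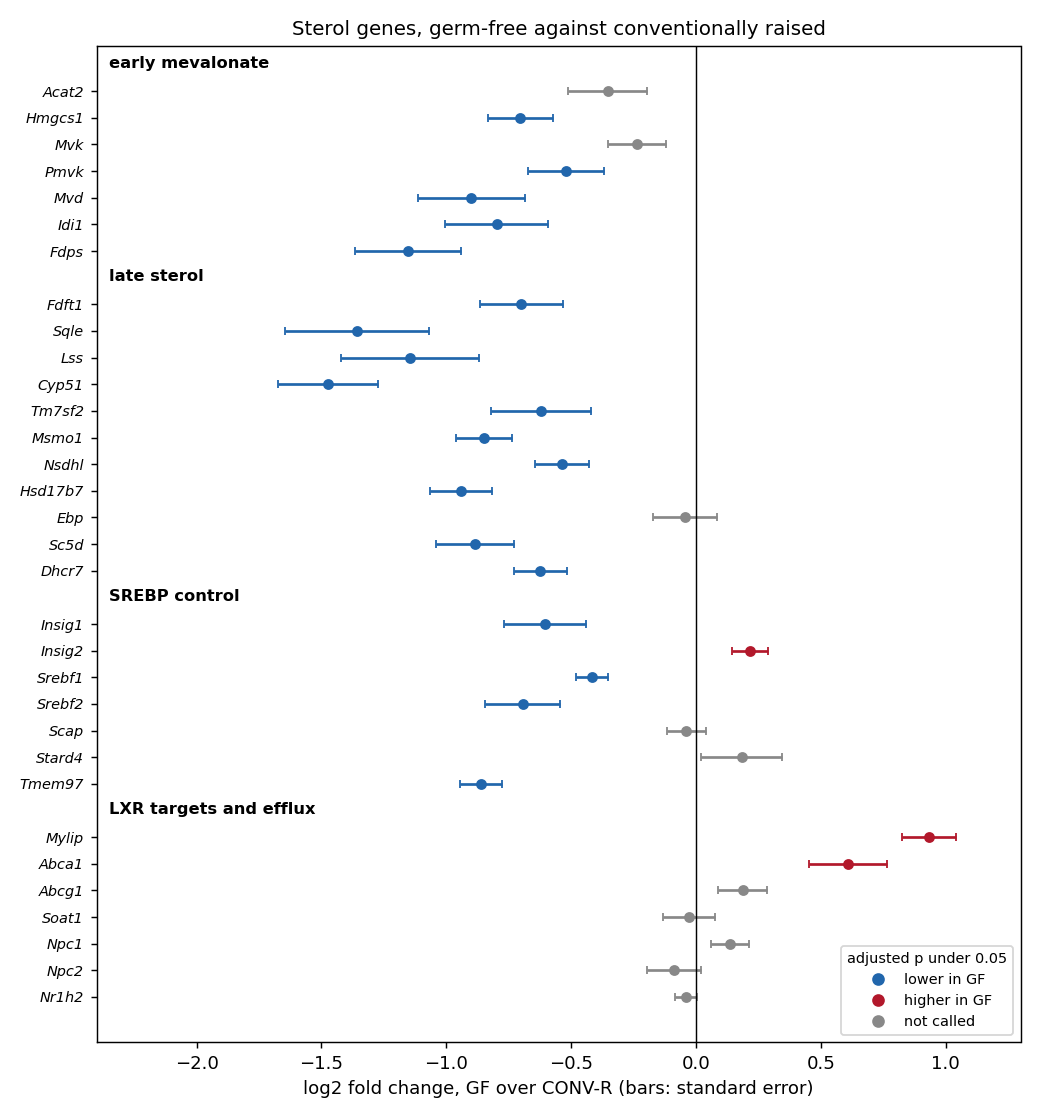
Log2 fold changes of the 32 members, GF over CONV-R, with standard errors as bars, grouped by step. Blue points are lower and red points higher in GF at an adjusted p under 0.05. The 18 synthesis genes all lie left of 0, from -0.04 in Ebp to -1.47 in Cyp51, and Mylip lies farthest to the right at 0.93.

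In the early mevalonate group 5 of 7 genes were lower, none was higher, and the median log2 fold change was -0.70. Hmgcs1 encodes the synthase that makes HMG-CoA from acetoacetyl-CoA. It stood at a lowest, median and highest level of 50.5, 69.1 and 97.8 CPM in CONV-R and 37.6, 43.4 and 45.1 CPM in GF. The 2 groups did not overlap, and CONV-R 2 held the highest value (log2 fold change -0.70 ± 0.13, adjusted p = 0.00278). Fdps makes farnesyl diphosphate, the branch point between sterols and other isoprenoids. It ran from 22.1 through a median of 30.4 to 60.7 CPM among CONV-R libraries and from 14.8 through 16.2 to 17.5 in GF. CONV-R 1 and 7 were the highest at 60.7 and 46.8, and all GF libraries stayed below the lowest CONV-R library (-1.15 ± 0.21, adjusted p = 0.00268).

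The genes between those steps were less abundant. Mvd, the decarboxylase that yields isopentenyl diphosphate, stood at 4.16, 5.11 and 10.5 CPM (lowest, median, highest) in CONV-R and 2.47, 3.14 and 3.73 in GF, again without overlap (-0.90 ± 0.21, adjusted p = 0.0104). Idi1, the isomerase of isopentenyl diphosphate, ran from 4.83 to 14.3 CPM among CONV-R libraries and from 5.83 to 7.16 in GF (-0.80 ± 0.21, adjusted p = 0.0150). Here CONV-R 6, the shallowest library, was the lowest of all 13, and the next CONV-R value was 7.87. Pmvk, the phosphomevalonate kinase gene, was lower by a smaller amount (-0.52 ± 0.15, adjusted p = 0.0262). Pmvk no longer passed when GF 9, GF 10 or GF 13 was omitted (adjusted p 0.0508 to 0.0581).

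The upstream kinase and thiolase genes did not pass. Mvk, the mevalonate kinase gene, stood at 10.3 ± 1.74 CPM in CONV-R against 8.80 ± 0.68 in GF (-0.24 ± 0.12, adjusted p = 0.146). Without CONV-R 7, its lowest CONV-R library at 7.47 CPM, it passed (-0.30, adjusted p = 0.0407). Acat2, which encodes the cytosolic thiolase that condenses acetyl-CoA, stood at 8.44 ± 2.13 and 6.62 ± 0.79 CPM (-0.35 ± 0.16, adjusted p = 0.114), and passed without CONV-R 6 (-0.44, adjusted p = 0.0495).

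In late sterol synthesis 10 of 11 genes were lower, none was higher, and the median was -0.85. Fdft1, the squalene synthase gene, commits farnesyl diphosphate to sterols and stood at 12.0, 17.4 and 24.6 CPM (lowest, median, highest) in CONV-R and 10.3, 10.7 and 13.0 in GF. The groups overlapped there, with 4 of 6 GF libraries below every CONV-R library (-0.70 ± 0.17, adjusted p = 0.0101). Sqle encodes squalene epoxidase, a rate-limiting oxygen-dependent step. It ran from 4.70 to 13.3 CPM among CONV-R libraries and from 1.90 to 4.72 in GF, and GF 10 alone reached the lowest CONV-R value (-1.36 ± 0.29, adjusted p = 0.00586). Lss, the cyclase that forms lanosterol, ran from 3.92 to 13.5 CPM and from 2.56 to 4.28 (-1.15 ± 0.28, adjusted p = 0.0108).

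Next come the genes that demethylate lanosterol. Cyp51, the lanosterol demethylase gene, had the lowest log2 fold change of the 32 members. It stood at 25.2, 17.1, 12.0, 14.0, 11.4, 9.67 and 20.1 CPM in CONV-R 1 to 7, and at 5.45, 5.21, 6.15, 5.30, 5.31 and 6.41 CPM in GF 8 to 13. No GF library came near the lowest CONV-R library, and the fold was 2.78 (log2 fold change -1.47 ± 0.20, adjusted p = 4.11e-04). Msmo1, a sterol methyl oxidase gene, stood at 35.7, 35.1, 29.9, 32.8, 25.0, 21.03 and 34.2 CPM in CONV-R 1 to 7 and between 16.4 and 17.5 CPM in GF. The GF values were tightly grouped and lay below all CONV-R values (-0.85 ± 0.11, adjusted p = 2.88e-04). Hsd17b7, the 3-ketosteroid reductase gene of the same demethylating complex, ran from 6.06 to 10.0 CPM among CONV-R libraries and from 3.85 to 5.14 in GF (-0.94 ± 0.12, adjusted p = 3.21e-04). Nsdhl, the decarboxylating dehydrogenase gene, changed by -0.54 ± 0.11 (adjusted p = 0.00442), with 5 of 6 GF libraries below every CONV-R library.

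The remaining genes act on the sterol ring. Sc5d, the sterol desaturase gene, lay between 19.99 and 44.7 CPM among CONV-R libraries and between 16.4 and 19.6 among GF libraries, without overlap (-0.88 ± 0.16, adjusted p = 0.00219). Dhcr7, the reductase gene that converts 7-dehydrocholesterol to cholesterol, ran from 17.2 through 24.9 to 27.0 and from 14.1 through 14.8 to 16.6 CPM (-0.62 ± 0.11, adjusted p = 0.00172). Tm7sf2, a sterol reductase gene, passed narrowly (-0.62 ± 0.20, adjusted p = 0.0383). CONV-R 1 and 7 held 27.8 and 29.5 CPM of Tm7sf2, while the other CONV-R libraries held 11.6 to 16.8, next to 10.9 to 13.9 in GF. Tm7sf2 no longer passed when CONV-R 1, CONV-R 7 or any single GF library was omitted (adjusted p 0.0538 to 0.0768). Ebp, the sterol isomerase gene, stood at 38.0 ± 7.81 CPM in CONV-R against 37.0 ± 3.50 in GF (-0.04 ± 0.13, adjusted p = 0.834).

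**Figure D2:**
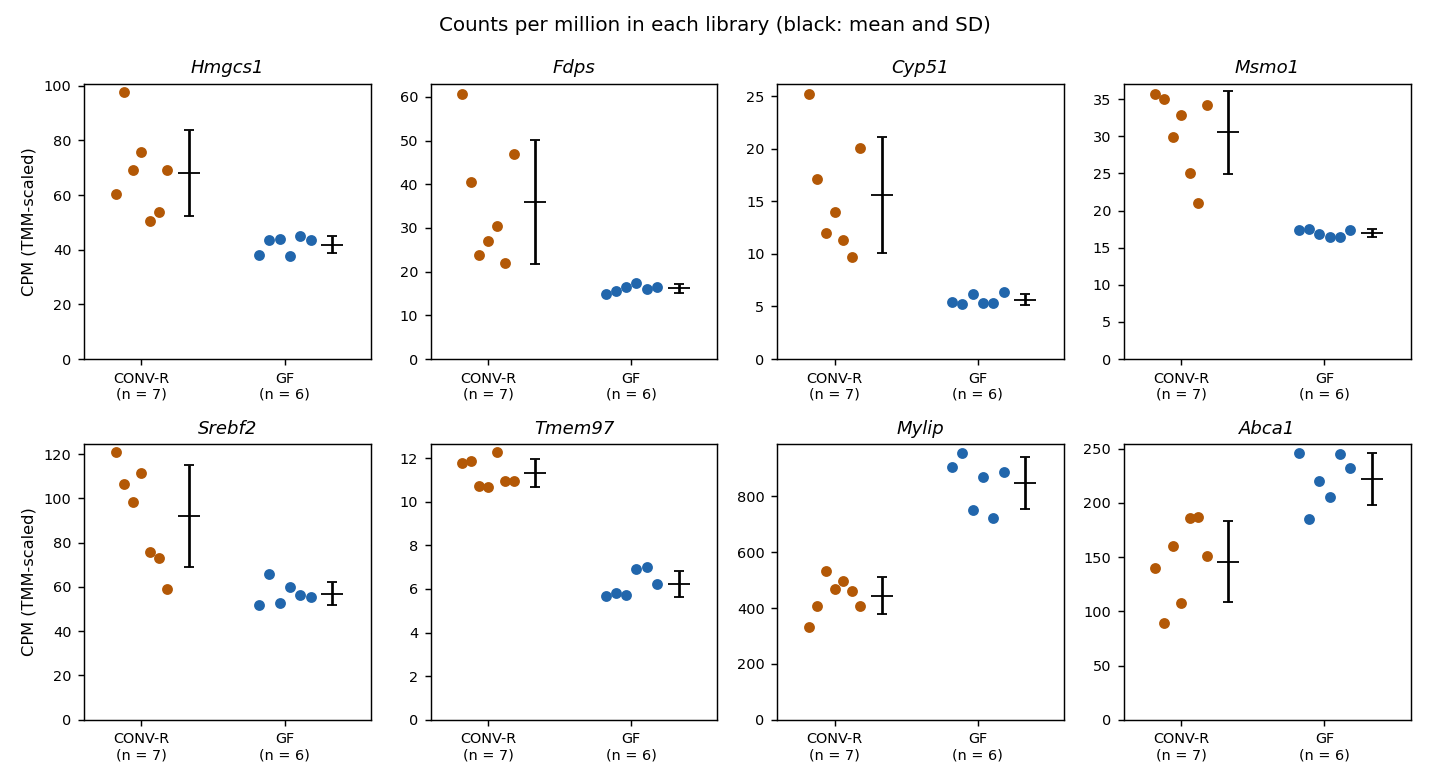
Levels of 8 members in every library, in TMM-scaled CPM on linear axes from 0, with CONV-R in orange and GF in blue; black marks give the group mean and SD. The GF libraries lie below every CONV-R library in Hmgcs1, Fdps, Cyp51, Msmo1 and Tmem97, overlap in Srebf2 and Abca1, and lie above in Mylip, at 722 to 956 against 332 to 533 CPM.

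Levels per kilobase of annotated exons allow genes to be set beside each other only roughly. The length counts every annotated exonic base of a gene, whichever transcripts are present, so the order depends in part on the annotation. Lss, for example, has 10787 such bases and a mean of 7.79 CPM in CONV-R. On this scale the 18 synthesis genes had mean levels from 0.722 CPM per kilobase in Lss to 16.5 in Ebp in CONV-R, and from 0.327 to 16.0 for the same genes in GF. Ebp, the gene with the least difference among them, was also the most abundant of them in both groups. Mylip had the highest level of the 32 members, at 137 CPM per kilobase in CONV-R and 262 in GF, followed in both groups by Npc2 (43.5 and 40.9), Nr1h2 (31.3 and 30.4) and Abcg1 (25.6 and 29.1). Summed over the 18 synthesis genes, CONV-R libraries held 367 ± 74.2 CPM and GF libraries 228 ± 9.06 CPM.

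The genes that sense sterols and control SREBP were lower for 4 of 7 members and higher for 1, with a median of -0.42. Srebf2, which encodes the SREBP-2 that drives sterol synthesis, stood at 121, 106, 98.3, 111, 75.7, 72.9 and 58.8 CPM in CONV-R 1 to 7 and at 51.7, 66.0, 52.6, 59.9, 56.3 and 55.2 CPM in GF 8 to 13. CONV-R 1 to 4 lay well above GF, whereas CONV-R 7 fell inside the GF range (-0.69 ± 0.15, adjusted p = 0.00609). Srebf1, which encodes SREBP-1, whose 1c form is an LXR target that drives fatty acid synthesis, ran from 68.9 through 74.9 to 85.5 CPM among CONV-R libraries and from 52.7 through 58.3 to 61.2 in GF. The groups did not overlap and the spread was small (-0.42 ± 0.06, adjusted p = 8.63e-04). Isoforms of Srebf1 cannot be told apart in counts per gene.

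Both INSIG genes encode anchors that hold SCAP in the endoplasmic reticulum, and they moved in opposite directions. Insig1, the form that SREBP induces, stood at 70.0 ± 17.3 CPM in CONV-R against 46.2 ± 6.84 in GF (-0.60 ± 0.16, adjusted p = 0.0179). CONV-R 5 and 6, at 44.0 and 50.7 CPM, lay within the GF range, in which GF 12 was the lowest at 32.9. Insig2 stood at 53.02 ± 6.02 and 61.7 ± 2.50 CPM, with 5 of 6 GF libraries above every CONV-R library (0.22 ± 0.07, adjusted p = 0.0437). Insig2 passed narrowly. It still passed when CONV-R 2, CONV-R 3 or CONV-R 4 was omitted, but not when any 1 of the other 10 libraries was (adjusted p 0.0538 to 0.109). Scap, the escort of SREBP, stood at 52.4 ± 7.21 and 51.1 ± 0.81 CPM (-0.04 ± 0.08, adjusted p = 0.762).

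Tmem97 and Stard4 are SREBP targets that handle sterols. Tmem97, the sigma-2 receptor that binds the cholesterol transporter NPC1, stood at 11.8, 11.9, 10.7, 10.7, 12.3, 11.0 and 11.0 CPM in CONV-R 1 to 7 and at 5.67, 5.83, 5.73, 6.91, 7.02 and 6.24 CPM in GF 8 to 13. Each group was narrow and there was no overlap, and its adjusted p was the smallest of the 32 members (-0.86 ± 0.08, adjusted p = 3.50e-05). Stard4, a soluble sterol carrier, stood at 99.6 ± 28.8 and 113 ± 8.07 CPM (0.18 ± 0.16, adjusted p = 0.422). The CONV-R libraries split widely for Stard4, with 122, 128 and 137 CPM in CONV-R 2, 3 and 4 and 63.1 to 88.9 in the others.

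In the LXR and efflux group 2 of 7 genes were higher, none was lower, and the median was 0.14. Mylip encodes the LXR-induced ubiquitin ligase, also called IDOL, that targets lipoprotein receptors for degradation. It stood at 332, 407, 533, 469, 496, 460.5 and 409 CPM in CONV-R 1 to 7 and at 904, 956, 751, 870, 722 and 888 CPM in GF 8 to 13. Every GF library lay above every CONV-R library, with a fold of 1.91 (0.93 ± 0.11, adjusted p = 1.16e-04). Abca1, the transporter that loads cholesterol onto apolipoprotein A-I, stood at 140, 88.96, 160, 108, 186, 187 and 151 CPM in CONV-R 1 to 7 and at 246, 185, 220, 205, 245 and 232 CPM in GF 8 to 13. GF 9 was the single GF library within the CONV-R range (0.61 ± 0.16, adjusted p = 0.0146).

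The other efflux and storage genes passed in neither direction. Abcg1, the transporter that exports cholesterol to high-density lipoprotein, stood at 187 ± 24.6 CPM in CONV-R against 212 ± 25.8 in GF (0.19 ± 0.10, adjusted p = 0.169), and GF 12 held the highest value at 262 CPM. Npc1 and Npc2, the pair that moves cholesterol out of lysosomes, changed by 0.14 ± 0.07 (adjusted p = 0.189) and by -0.09 ± 0.11 (adjusted p = 0.578). Soat1, which esterifies cholesterol for storage, stood at 67.9 ± 11.9 and 66.4 ± 5.25 CPM (-0.03 ± 0.10, adjusted p = 0.870). Nr1h2, which encodes LXR-beta itself, was the steadiest of the group, at 105 ± 4.29 and 102 ± 2.90 CPM (-0.04 ± 0.04, adjusted p = 0.524).

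**Figure D3:**
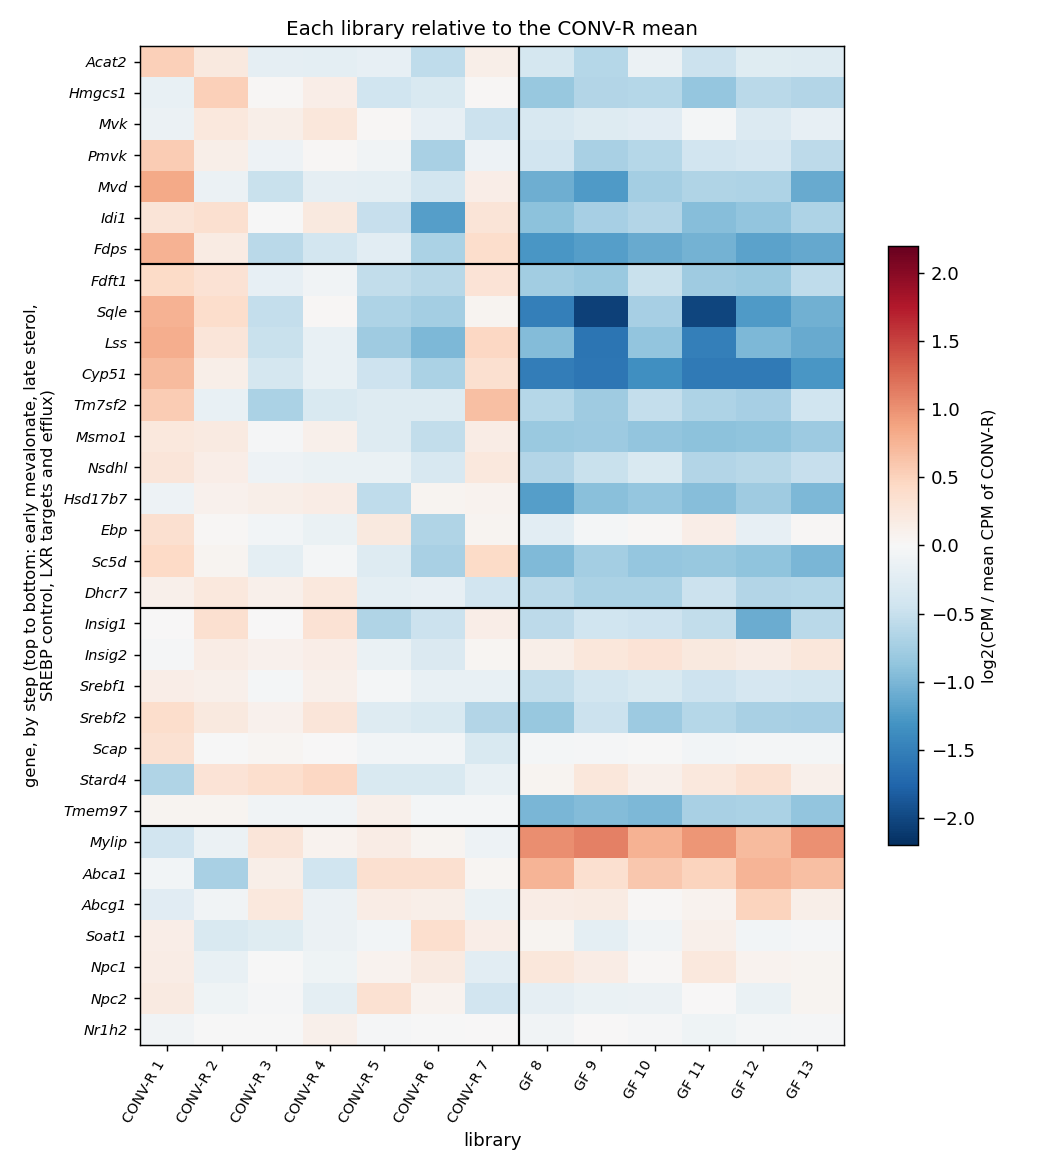
Level of each member (rows, by step) in each library (columns) as log2 of the CPM over the CONV-R mean of that gene; red is above and blue below that mean. The GF columns are blue for most synthesis genes and red for Mylip and Abca1, and among CONV-R the columns 1 and 6 differ most in the synthesis genes.

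The CONV-R libraries varied more than the GF libraries. The median SD of log2 CPM over the 18 synthesis genes was 0.38 in CONV-R and 0.12 in GF, and over all tested genes 0.25 and 0.12. CONV-R 1 was the highest CONV-R library for 12 of the 18 synthesis genes, and CONV-R 6 was the lowest for 12. The hepatocyte marker sum, in CPM of the unscaled total, was 9117 in CONV-R 1, 7895 in CONV-R 7, 4848 in CONV-R 5, 3192 in CONV-R 2, 2807 in CONV-R 6, 1876 in CONV-R 3 and 1493 in CONV-R 4. In the same libraries the sum of the 18 synthesis genes was 468, 415, 307, 429, 259, 331 and 362 CPM. It was 215 to 240.3 CPM in GF, below every CONV-R library. CONV-R 4, whose hepatocyte sum was closest to the 1321 of GF 13, held 362 CPM of synthesis transcripts against 236 in GF 13.

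**Figure D4:**
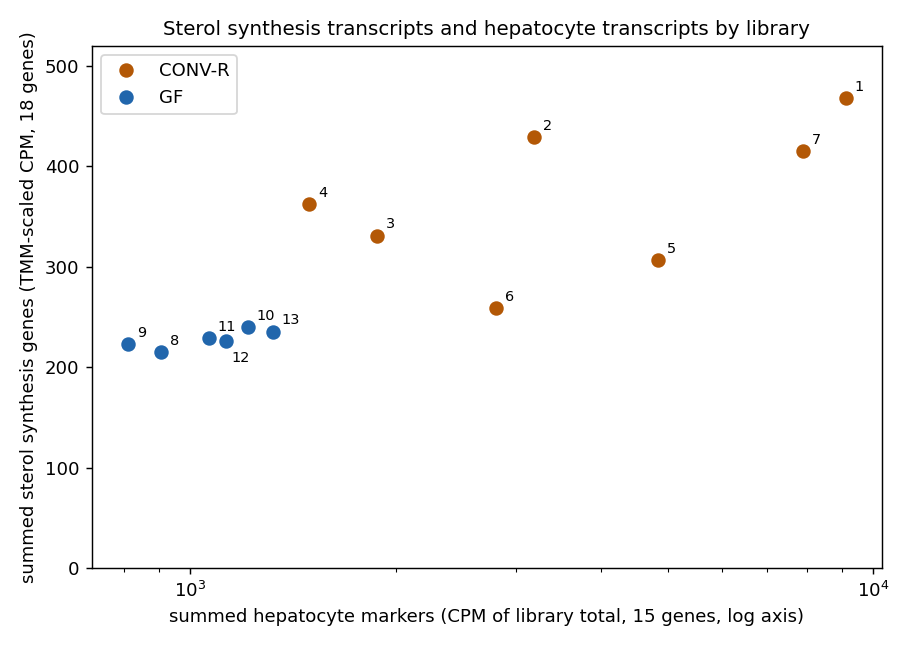
Summed CPM of the 18 synthesis genes (y axis, linear from 0) against the summed CPM of 15 hepatocyte markers (x axis, log scale), 1 point per library with its number. GF points sit between 215 and 240.3 on the y axis, and CONV-R points between 259 and 468 at higher hepatocyte sums.

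All 15 hepatocyte markers were lower in GF, with a median log2 fold change of -2.18: Alb, the albumin gene, stood at 1522 ± 919 CPM in CONV-R and 469 ± 93.2 in GF, Ttr at 158 ± 110.3 and 41.0 ± 8.29, and Fgb at 187 ± 134 and 25.1 ± 4.79. Hepatocytes express the sterol pathway too. In bulk libraries fewer cells of a type and less RNA per cell cannot be told apart. Against CONV-R 2, 3 and 4 alone, 19 members were lower and 3 higher, next to 9.55% and 9.47% of 14284 genes. Cyp51 was at -1.35 in that comparison, Msmo1 at -0.94, Tmem97 at -0.83 and Mylip at 0.85, and Tm7sf2 and Insig2 no longer passed. That subset leaves out CONV-R 6, whose hepatocyte sum of 2807 is below that of CONV-R 2 and whose synthesis sum is the lowest of CONV-R. With CONV-R 6 added, a choice made after seeing the data, 18 members were lower and 2 higher, next to 9.38% and 8.90% of all genes. Cyp51 was then at -1.24, Msmo1 at -0.82, Tmem97 at -0.83 and Mylip at 0.86, and Pmvk, Tm7sf2 and Insig2 did not pass. Without CONV-R 1 and 7, chosen after their sums were seen, 19 were lower and 2 higher, next to 11.8% and 10.2% of all genes.

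With the hepatocyte sum of each library as a covariate, 6 members were lower and 1 was higher, next to 1.64% and 1.98% of all genes. The lower genes were Hmgcs1 (-0.85), Msmo1 (-0.75), Hsd17b7 (-1.10), Dhcr7 (-0.83), Srebf1 (-0.42) and Tmem97 (-0.77), and the higher gene was Mylip (0.63). Cyp51 (-0.86, adjusted p = 0.0506, against -1.47 without the covariate) and Srebf2 (-0.85, adjusted p = 0.0601) missed the threshold there. Sqle (-0.81, adjusted p = 0.292, against -1.36) and Idi1 (-0.67, adjusted p = 0.271, against -0.80) did not pass either. Insig1 (-0.75, adjusted p = 0.132) and Abca1 (0.77, adjusted p = 0.130) also lost their calls. Of the 15 synthesis genes called lower without the covariate, 8 came to under 0.5 in size with it. They were Fdps (-0.32), Mvd (-0.21), Lss (-0.42), Pmvk (-0.25), Fdft1 (-0.34), Nsdhl (-0.25), Sc5d (-0.49) and Tm7sf2, which turned to 0.21. The covariate did not overlap between the groups. That fit used a single slope for both groups, which rested mostly on CONV-R, where the hepatocyte sum varied more (SD 2985 CPM, against 191 among GF libraries). The log2 fold changes with the covariate therefore depend on extending this slope across the gap between the groups.

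**Figure D5:**
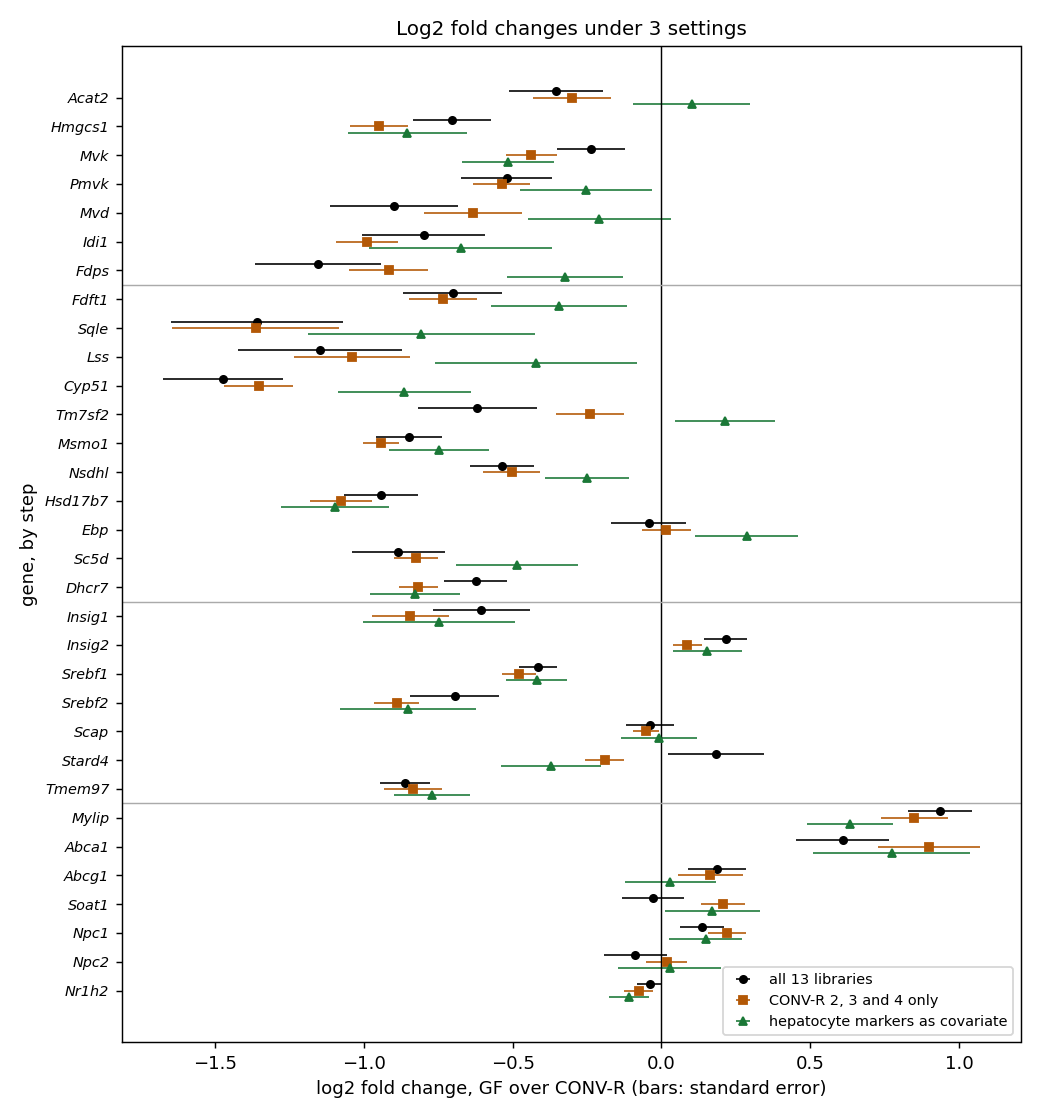
Log2 fold changes of the 32 members with standard errors under 3 settings: all 13 libraries (black), CONV-R 2, 3 and 4 only (orange), and the hepatocyte marker sum as covariate (green). Hmgcs1, Msmo1, Hsd17b7, Dhcr7, Srebf1 and Tmem97 stay at -0.42 or lower in all 3, and Mylip stays at 0.63 or higher. Of the genes called lower with all 13 libraries, Fdps, Mvd, Lss, Cyp51, Sqle, Idi1, Pmvk, Fdft1, Nsdhl and Sc5d move toward 0 with the covariate. Msmo1 and Tmem97 do so by less, and Tm7sf2 crosses 0.

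Other cell types moved with the groups as well. Endothelial markers were higher in GF for 8 of 14 genes and lower for none, and their sum was 35745 ± 5626 CPM of the unscaled total in CONV-R and 42546 ± 694 in GF (exact two-sided permutation test, adjusted p = 0.00816). Mylip and Abca1 were higher in GF too. Within CONV-R, the lowest endothelial sum came with the lowest Mylip, 24323 and 332 CPM in CONV-R 1. The lowest Abca1, 88.96 CPM, was in CONV-R 2, whose endothelial sum was 38573. Whether the sum bears on either gene was not tested. Of 8 neutrophil markers 7 were lower in GF, as were 6 of 7 B cell markers. The sum of the neutrophil markers ran from 152 to 2372 CPM among CONV-R libraries and from 74.9 to 167 in GF, and that of the B cell markers from 45.8 to 1391 and from 16.8 to 31.1. Of 6 cholangiocyte markers 4 were higher, and of 7 stellate cell and fibroblast markers 1 was higher. That gene, Col1a1, named after its values were seen, reached 154 CPM in a single GF library, while its median was 0.98 in GF and 1.57 in CONV-R. The 11 Kupffer cell markers, none of which passed, summed to 5035 ± 2327 and 3042 ± 498 CPM, and Clec4f, their defining gene, passed in neither direction (-0.66 ± 0.27, adjusted p = 0.0919). With the Kupffer cell sum as a covariate 16 members were lower and 2 higher, next to 4.41% and 5.27% of all genes. The part of the endothelial, neutrophil, B cell, cholangiocyte and stellate cell signals in the results for the sterol genes was not tested. Library names hold a code whose number is 6 in every GF library, 10 in the first 4 CONV-R libraries and 9 in the remaining 3, so code number and group cannot be told apart. Against code number 10 alone 19 members were lower and 2 higher, next to 7.05% and 6.89% of all genes, with a median of -0.63. Against code number 9 alone 15 were lower and 4 higher, next to 17.9% and 16.2% of all genes, with a median of -0.32.

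Genes next to the members in the pathway were read from 5 lists. Their counts stand next to 12.7% lower and 11.4% higher among all 13915 genes tested. With the hepatocyte covariate those shares were 1.64% and 1.98%, and with the Kupffer cell covariate 4.41% and 5.27%. Counts of 1 or 2 in such short lists are not read as a result about the list. In the isoprenoid branch, which uses farnesyl diphosphate for dolichol, ubiquinone and protein prenylation, 1 of 11 genes was lower and 4 were higher, with a median of 0.18. Nus1, a subunit of the dolichol-forming prenyltransferase, changed by 0.35 ± 0.08 (adjusted p = 0.00694). Zmpste24, a protease that processes prenylated lamin A, changed by 0.34 ± 0.11, Pggt1b, a prenyltransferase subunit, by 0.34 ± 0.11, and Rabggta, a subunit of the Rab prenyltransferase, by -0.35 ± 0.08. The count of higher genes was 2 to 5 on leaving out single libraries, 2 without any 1 GF library, CONV-R 5 or CONV-R 6, and 0 with the hepatocyte covariate. Pggt1b lost its call in 10 of these 13 omissions and Zmpste24 in 9.

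Genes that cleave SREBP or degrade sterol-regulated proteins were higher for 3 of 12 members and lower for none, with a median of 0.17. Mbtps1, the site-1 protease that cleaves SREBP in the Golgi, rose from 132 to 171 CPM (0.38 ± 0.06, adjusted p = 0.00103). Ube2g2, a ubiquitin-conjugating enzyme of endoplasmic reticulum degradation, changed by 0.25 ± 0.07, and Rnf145, a sterol-responsive ubiquitin ligase, by 0.22 ± 0.06. The count of higher genes ran from 1 without GF 9 to 6 without CONV-R 3, and was 0 with the hepatocyte covariate. Rnf145 lost its call in 5 single omissions and Ube2g2 in 2.

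Fatty acid genes under SREBP control were lower for 7 of 13 members and higher for 1, with a median of -0.35. Scd1, the stearoyl-CoA desaturase gene, fell from 228 to 70.0 CPM (-1.70 ± 0.26, adjusted p = 7.89e-04). Fasn, the fatty acid synthase gene, changed by -1.37 ± 0.30 and the lipase gene Pnpla3 by -0.78 ± 0.19. Lpin1, a phosphatidic acid phosphatase gene, changed by 0.42 ± 0.12 in the other direction, a call lost in 5 single omissions. With the hepatocyte covariate 1 gene of this list was lower and 0 were higher, and with the Kupffer cell covariate 4 were lower.

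Partners and other targets of LXR were lower for 2 of 9 members and higher for none, with a median of -0.18. Abcg5, a sterol transporter subunit of hepatocytes and gut, stood at 1.69 CPM in CONV-R against 0.73 in GF (-1.20 ± 0.41, adjusted p = 0.0480). Arl4c, a small GTPase and LXR target, fell from 48.6 to 29.1 CPM (-0.74 ± 0.15, adjusted p = 0.00465). Abcg5 lost its call in 10 of 13 single omissions. The count of lower genes was 1 without any 1 GF library, CONV-R 1, CONV-R 5 or CONV-R 6, 4 without CONV-R 4, and 0 with the hepatocyte covariate. The count of higher genes was 0 to 1 on leaving out single libraries and 1 with the hepatocyte covariate. With the Kupffer cell covariate 1 gene of this list was lower and 2 were higher. In the list for cholesterol transport, esters and oxysterols 4 of 16 were lower and 2 higher, with a median of -0.11, and with the hepatocyte covariate 0 were lower and 1 higher. The lysosomal genes Scarb2 (0.58 ± 0.12) and Lipa, the acid lipase (0.36 ± 0.07), were higher. Lower were the oxysterol hydroxylase gene Cyp7b1 (-2.37 ± 0.44), the sterol acyltransferase gene Soat2 (-1.55 ± 0.37) and the sterol hydroxylase gene Cyp27a1 (-1.15 ± 0.27). Cyp7b1 and Soat2 are expressed in hepatocytes, whose markers fell in the same libraries. Cyp27a1 turned to 0.060 with the hepatocyte covariate. Which cells these lower transcripts came from was not tested.

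The members are protein-coding genes in RefSeq of GRCm38, the build the submitters call mm10, and counts were summed over each gene. Hmgcs1 spans chromosome 13 from 119690351 to 119708260, Cyp51 chromosome 5 from 4080674 to 4104697 and Msmo1 chromosome 8 from 64718123 to 64733578. Hsd17b7 spans chromosome 1 from 169949535 to 169969242, Srebf2 chromosome 15 from 82147269 to 82205379, Tmem97 chromosome 11 from 78541817 to 78550735 and Mylip chromosome 13 from 45389742 to 45411940. Exons of 10 members share bases with another gene in GENCODE M21, 8 of them on the opposite strand and 3 on the same strand. Examples are Fdft1 with 774 bases shared with Ctsb on the opposite strand, and Fdps with 1124 of 4208 exonic bases shared with Gm43738 on the same strand. Since the strand setting of the counting is not given, reads in such stretches cannot be assigned with certainty.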

How the data were processed

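RNA of liver endothelial cells was sequenced as stranded poly(A) libraries, per the labels' protocols, in 7 CONV-R and 6 GF libraries. The authors deposited raw counts per gene symbol, 1 column per library, with 0 columns outside the series. FastQC 0.11.9, STAR 2.7.5a, featureCounts 2.0.1 and DESeq2 1.42.1 were used with build mm10, per the submitters' processing notes. Annotation, strand setting and treatment of multiply mapped reads: not given in the sources used here.

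The test was that of edgeR 4.0.16, run in R 4.3.3 (filterByExpr with minimum count 10 and total 15, TMM, robust quasi-likelihood fit of group, Benjamini-Hochberg adjustment, threshold 0.05). The standard error is the absolute log2 fold change over the square root of F. Marker sums, in CPM of the unscaled total, were compared as log2 with a pseudocount of 1 by exact permutation over 1716 assignments, adjusted over 7 lists. Promoter and gene coordinates came from RefSeq GRCm38.p6, exon lengths from GENCODE M21.

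Members, gene lists and CONV-R 2, 3 and 4 as a subset were chosen with earlier results of these data known. All members are named. In each neighbouring list up to 3 genes past the threshold in each direction are named, plus 8 fixed markers. Alternatives were DESeq2 1.42.0, limma-voom (limma 3.58.1), other scalings, filters and library subsets, covariates, and leaving out each library. The fit was also run on simulated data. These gave both groups the same dispersion, whereas the CONV-R libraries varied more than the GF libraries, so no conclusion is drawn from them. Replicate libraries always differed by more than counting noise, with a chi-square per degree of freedom of 14.1 in the closest pair. P-values of the edgeR test set the group difference against the spread between libraries, whose origin as separate animals the labels do not state.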

Additional observations from a re-analysis of the deposited data

Results flagged for a closer look

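Of 78 groups of values searched (32 members and 7 marker sums in each group), 7 held a single library far from the others, while chance flags about 1 in 20. Among the members, Hsd17b7 was lowest in CONV-R 5 at 6.06 CPM, against 8.26 to 10.0 in the other CONV-R libraries. Insig1 was lowest in GF 12 at 32.9 CPM, against 46.5 to 51.8 in the other GF libraries, and the same library was the highest in Abcg1, at 262 CPM against 189 to 213. Nr1h2 was highest in CONV-R 4 at 114 CPM, against 99.5 to 105 in the others.

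Among the marker sums, in CPM of the unscaled total, CONV-R 1 was lowest for endothelial markers at 24323, against 34146 to 41505 in the other CONV-R libraries. It was also highest for B cell markers, at 1391 against 45.8 to 64.1. GF 11 was highest for stellate cell and fibroblast markers, at 352 against 142 to 188.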

How the results depend on the processing

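No paired analysis was possible because the groups share no replicate numbers in the labels. Among members, Hmgcs1, Msmo1, Hsd17b7, Dhcr7, Srebf1, Tmem97 and Mylip kept their call in all 27 alternatives. Lower and higher members were 12 and 1 at a threshold of 0.01 and 6 and 1 with the hepatocyte covariate. With that covariate the lower genes numbered 1 in the early, 3 in the late and 2 in the SREBP group, and 1 was higher in the LXR group. The early group had 2 lower at a threshold of 0.01, 3 with the Kupffer cell covariate and 3 against code number 9; the LXR group had 1 higher at 0.01 and, with library totals, 1 lower. The members' median was -0.32 against code number 9 and -0.33 with the hepatocyte covariate. The count of higher genes in the SREBP group, which was 1 (Insig2) in the main fit, was 1 with DESeq2 and 2 against code number 9. It ranged from 0 to 1 on leaving out single libraries and was 0 under all other alternatives.

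Over all genes, 2773 were lower and 971 higher with library totals, a shift of the median of all genes to -0.11, so 25.9% of calls were higher against 47.5%. The counts were 579 and 629 at a threshold of 0.01, 1000 and 978 against code number 10, 228 and 275 with the hepatocyte and 613 and 733 with the Kupffer cell covariate. Leaving out single libraries gave 1208 to 1972 lower and 1013 to 1765 higher genes, the lowest without GF 9.

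Signs turned for members near 0 and a few others, and the cause was not tested. With the hepatocyte covariate Acat2 was 0.10, Tm7sf2 0.21, Ebp 0.29, Stard4 -0.37, Soat1 0.17, Npc2 0.028, Zmpste24 -0.080, Pggt1b -0.057, Lpin1 -0.056, Abcg5 0.30 and Cyp27a1 0.060. With the Kupffer cell covariate Stard4 was -0.082, Soat1 0.14 and Npc2 0.064. Against CONV-R 2, 3 and 4 Ebp was 0.017, Stard4 -0.19, Soat1 0.21 and Npc2 0.018. Against code number 9 Ebp was 0.015 and Scap 0.10; against code number 10 Soat1 was 0.10, and with limma-voom 0.11. Without CONV-R 1 and 7, chosen after seeing the data, Ebp was 0.041 and Soat1 0.030. Against CONV-R 2, 3, 4 and 6, also chosen after seeing the data, Ebp was 0.13, Stard4 -0.050 and Soat1 0.036. On leaving out single libraries Ebp ranged from -0.14 to 0.011, Scap from -0.087 to 0.012 (both highest without CONV-R 1), Soat1 from -0.087 to 0.029 (highest without CONV-R 6), and the log2 difference of the stellate marker sum from -0.041 (without GF 11) to 0.22. Depth limits the rarest members, Mvd, Lss and Sqle, at 30 counts or more per library.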
